A study of Mus musculus with 6 samples.

Results

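Imprinted genes are the subject here: 45 mouse genes known to be expressed, in some tissues at least, mainly from the copy inherited from one parent. They were chosen by name and grouped into 19 imprinted clusters, 10 of which hold more than 1 of the 45. Counts by cluster below take in only these 45 genes. Each was found on the arrays through the RefSeq accession of its probes, except H19, which was found through the gene name in the file. A probe was found for 43 of the 45 genes, among 20647 genes with a symbol on the array. Rian and Snurf matched no probe. Of the 43, 41 had a probe bright enough to be tested, meaning that the scanner software marked it as well above background on 3 or more of the 6 arrays. Kcnq1, a potassium channel gene, was so marked on 0 of 3 SB431542 arrays and 1 of 3 DMSO arrays, and Rtl1, a retrotransposon-derived gene, on none of the 6. Neither was tested.

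The cells were J1, a mouse embryonic stem cell line of strain 129S4/SvJae, adapted to growth on gelatin in serum replacement medium with 1000 U/mL of leukaemia inhibitory factor (LIF). One group received 3 µM SB431542 for 24 h, and the other received the solvent DMSO for 24 h. SB431542 inhibits the kinase activity of ALK4, ALK5 and ALK7, the type I receptors for Nodal, activin and TGF-beta. Total RNA of 3 samples per group was labelled with Cy3 and hybridised to 1-colour Agilent arrays.

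In an imprinted cluster, a control region that carries DNA methylation on only one parental chromosome sets which copy of each neighbouring gene is transcribed, often with a long non-coding RNA made from the opposite copy. Many imprinted genes act on growth: those expressed from the paternal copy, such as Igf2, often promote it, and several of those expressed from the maternal copy, such as H19, Grb10 and Phlda2, restrain it. Embryonic stem cells in culture are known to carry variable methylation at these control regions. The arrays measured the RNA of both parental copies together, so the parental origin of a transcript was not measured here.

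Several of these transcription units also contain microRNAs. The largest rise and the largest fall among the imprinted genes were those of H19 and Calcr, and the mature microRNAs within both, and within Igf2, the partner of H19, are shown because they share their host's locus. The sequences and positions are those of RefSeq on GRCm38.p6, with the seed (bases 2 to 8) in capitals. All 8 lie on the minus strand, and the 8 seeds differ from each other.
miR-675-5p in H19, chr7:142577112-142577133: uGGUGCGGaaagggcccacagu
miR-675-3p in H19, chr7:142577078-142577099: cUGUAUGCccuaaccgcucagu
miR-483-5p in Igf2, chr7:142654968-142654989: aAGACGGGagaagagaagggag
miR-483-3p in Igf2, chr7:142654932-142654952: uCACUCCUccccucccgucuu
miR-489-5p in Calcr, chr6:3721957-3721981: uGUCAUAUgugugaugacacuuucu
miR-489-3p in Calcr, chr6:3721922-3721944: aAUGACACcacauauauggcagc
miR-653-5p in Calcr, chr6:3721355-3721375: gUGUUGAAacaaucucuacug
miR-653-3p in Calcr, chr6:3721315-3721335: uUCACUGGaguuuguuucagu
The levels of these microRNAs were not analysed here. Of the other imprinted genes, Rtl1 contains 15 annotated microRNA hairpins, Mirg 10, Rian 3, and Meg3, Mest and Usp29 1 each.

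After 24 h of SB431542, 6 of the 41 tested imprinted genes rose (H19, Zim1, Asb4, Igf2, Peg3 and Sgce) and 5 fell (Calcr, Usp29, Dlk1, Plagl1 and Phlda2). These calls are from limma at a Benjamini-Hochberg adjusted p under 0.05, over all 25899 features tested. Thus 26.8% of the tested imprinted genes were called changed, beside 12.5% of all features (5.09% higher and 7.37% lower). The genes were chosen with earlier results of these data known, so these shares are a description, and their difference was not tested. On leaving out any one of the DMSO arrays, 3 imprinted genes in place of 5 were called lower. The 30 imprinted genes that did not pass the threshold had log2 changes between -0.47 and 0.51, SB431542 minus DMSO, and 6 of them had an unadjusted p under 0.05. The median log2 change was 0.04 over the 41 genes and 0.02 over all features, and the median absolute log2 change was 0.14 in both. Past the threshold and beyond 2-fold were 3 imprinted genes (H19, Zim1 and Calcr), while 1.57% of all features were both. The labels do not say that the 3 samples of a group were separate cultures, so the p-values take in the spread among the 6 arrays and nothing beyond it. In such bulk RNA, fewer cells of a type and less RNA per cell cannot be told apart.

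The 3 arrays of the SB431542 group overlapped with none of the 3 DMSO arrays for 18 imprinted genes, 11 of them higher and 7 lower, beside 36% of all features (18.5% higher and 17.5% lower). All 11 called genes were among the 18. SB431542 replicate 3 lay alone on slide 2 with a scan of its own, and the other 5 arrays lay on slide 1. On slide 1 alone, 7 imprinted genes rose (Peg10 in addition) and 5 fell, beside 4.74% of features higher and 6.48% lower. The replicate on slide 2 departed from the mean of the other 2 SB431542 replicates by over 0.4 on the log2 scale for 4 imprinted genes, Airn (0.63), Copg2 (-0.65), Grb10 (-0.53) and Ascl2 (-0.51), none of which was called.

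**Figure D1:**
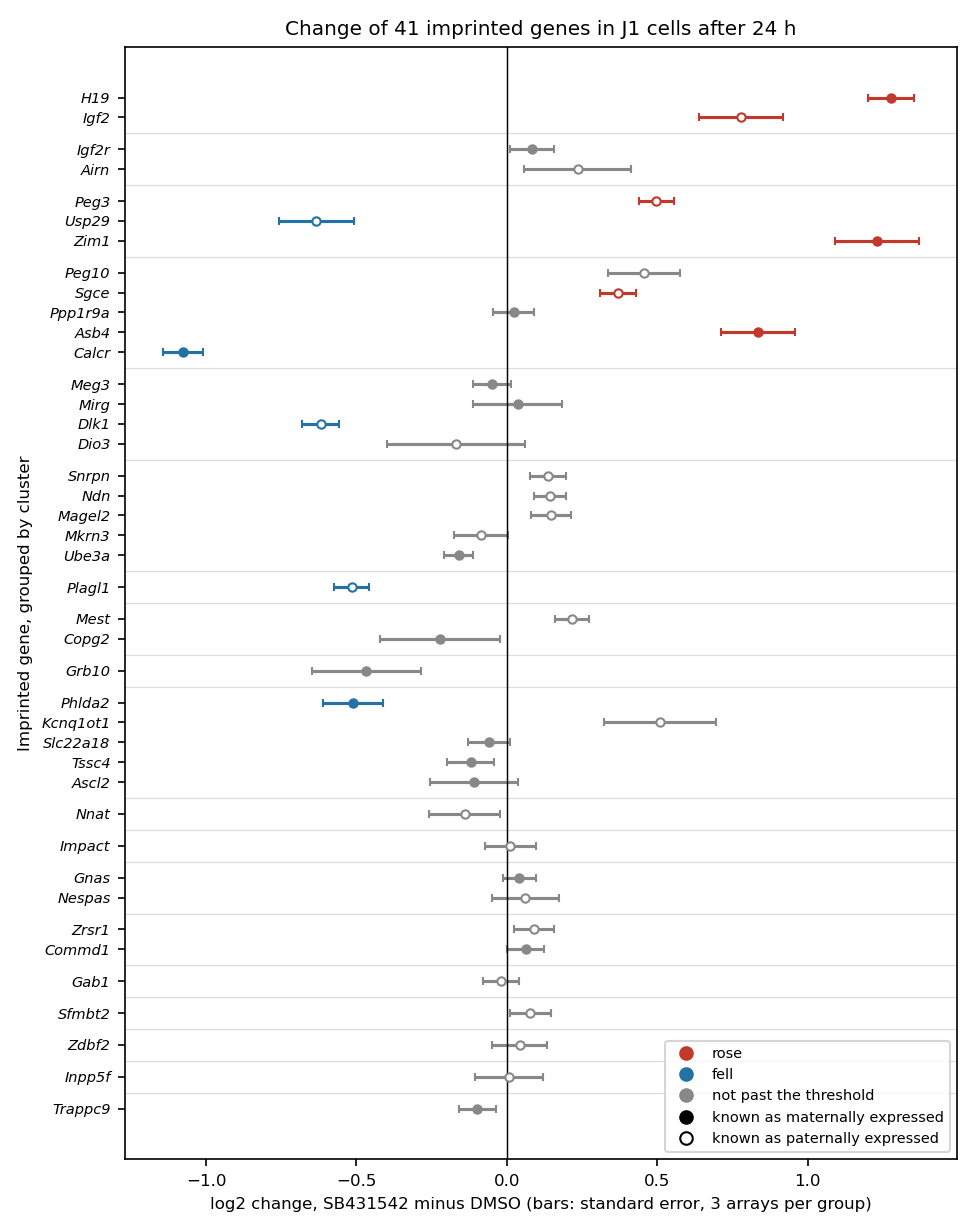
Log2 change, SB431542 minus DMSO, of the 41 tested imprinted genes on the x axis, with genes grouped by cluster down the page. Points are the fitted change with its standard error over 3 arrays per group, filled for genes known as maternally expressed and open for paternally expressed ones; the 6 genes in red rose, the 5 in blue fell and the 30 in grey did not pass the threshold.

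Both listed genes of the Igf2-H19 cluster rose. H19, a long non-coding RNA gene known as maternally expressed, had scaled intensities of 593, 589 and 606 on the SB431542 arrays, against 264, 254 and 222 on the DMSO arrays. Scaled intensity is the processed signal after setting the 75th percentile of every array to a common value, in arbitrary units that are comparable between arrays for the same probe but not between probes. The groups lay far apart, with little spread within either, and the log2 change was 1.28 ± 0.08 (standard error, limma adjusted p = 0.000697), a 2.42-fold rise. All 5 probes named H19 rose when every probe was tested on its own, with log2 changes from 1.19 to 1.54. Over all probes, 4.23% were called higher and 6.52% lower. Any further probe that may belong to H19 but received no symbol was left out, so the H19 values are those of the named probes alone. In the probe with the change of 1.54, SB431542 replicate 2 read 348, and the other SB431542 replicates read 146 and 148, against 71.3, 67.2 and 63.9 in DMSO.

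Igf2, the growth factor gene of the cluster and known as paternally expressed, read 21.9, 22.3 and 18.3 with SB431542, against 11.9, 14.3 and 10.4 with DMSO. All SB431542 arrays were above all DMSO arrays, but the signal was dim, and 1 of the 3 DMSO arrays was not well above background. Its log2 change was 0.78 ± 0.14 (limma adjusted p = 0.0198). With a normexp background correction and an offset of 50 in place of the scanner's own correction, the change was 0.17 and not past the threshold (adjusted p = 0.193). The call was also lost on leaving out DMSO replicate 1 (adjusted p = 0.0763), DMSO replicate 3 (0.0601), SB431542 replicate 1 (0.0593) or SB431542 replicate 2 (0.0640).

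The receptor that clears IGF2 belongs to another cluster, Igf2r-Airn, in which neither gene passed the threshold. Igf2r read between 2874 and 3364 with SB431542 and between 2899 and 3073 with DMSO (log2 change 0.08 ± 0.07). Airn, the antisense long non-coding RNA that runs through Igf2r, read 313, 296 and 471 with SB431542, against 306, 300.5 and 292 with DMSO. The high value belongs to the replicate on slide 2, and without it the log2 change was 0.03, against 0.24 with it.

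The Peg3 cluster held 3 of the called genes, 2 that rose and 1 that fell. Peg3, a zinc finger protein gene known as paternally expressed, read 422, 406 and 416 with SB431542, against 310.3, 279 and 292 with DMSO. Every SB431542 array was above every DMSO array, and the log2 change was 0.50 ± 0.06 (limma adjusted p = 0.00524). Its dimmer second probe rose as well, by 0.56. Usp29, a deubiquitinase gene also known as paternally expressed, was lower, with 17.4, 19.9 and 24.2 in SB431542, against 32.5, 30.4 and 31.6 in DMSO. The groups did not overlap, although the SB431542 arrays spread more widely, and the log2 change was -0.63 ± 0.13 (limma adjusted p = 0.0271). That call was lost with normexp, where the change was -0.14 (adjusted p = 0.168), on leaving out any one DMSO array (0.0977, 0.0860 and 0.0945) and on leaving out SB431542 replicate 2 (0.0792).

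Peg3 and Usp29 start 164 bases apart on opposite strands, and their promoter windows (250 bases before to 50 after the start, 300 bases) share 263 bases. The Peg3 window is shown because the genes on its 2 sides moved in opposite directions. It is from RefSeq on GRCm38.p6, minus strand, chr7:6730370-6730669, with its 13 CpG pairs in capitals.
Peg3 promoter window: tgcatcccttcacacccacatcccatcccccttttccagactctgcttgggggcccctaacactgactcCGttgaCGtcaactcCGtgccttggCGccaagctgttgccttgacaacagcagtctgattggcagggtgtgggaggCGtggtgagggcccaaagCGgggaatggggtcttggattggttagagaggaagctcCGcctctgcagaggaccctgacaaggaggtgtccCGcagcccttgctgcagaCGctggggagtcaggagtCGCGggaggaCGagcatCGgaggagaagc

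Zim1, another zinc finger protein gene beside Peg3 and known as maternally expressed, had the second largest rise of the set. It read 28.6, 30.5 and 30.5 with SB431542, against 14.4, 10.2 and 13.9 with DMSO. The SB431542 arrays lay close together and well apart from the DMSO arrays, 1 of which was not well above background. The log2 change was 1.23 ± 0.14 (limma adjusted p = 0.00467), and 0.28 with normexp, still past the threshold (adjusted p = 0.0260). A second Zim1 probe was too dim to be tested.

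In the Peg10-Sgce cluster, 2 of 5 genes rose, 1 fell and 2 did not pass. The fall was that of Calcr, the calcitonin receptor gene, known as maternally expressed, with 53.9, 53.4 and 60.1 in SB431542, against 114, 119.5 and 119 in DMSO. The groups were widely separated and tight, and the log2 change of -1.08 ± 0.07 (limma adjusted p = 0.000709) was the largest fall of the set. With normexp the change was -0.60 (adjusted p = 8.99e-05). Asb4, at the other end of the cluster, which encodes a SOCS box protein and is likewise known as maternally expressed, was higher, with 137, 145 and 137 in SB431542, against 84.3, 64.9 and 87.4 in DMSO. No arrays of the groups overlapped, and the log2 change was 0.83 ± 0.12 (limma adjusted p = 0.0102), and 0.53 with normexp (adjusted p = 0.00173). A second, dimmer Asb4 probe changed by 0.34 ± 0.16 and did not pass (adjusted p over all probes 0.236).

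Calcr and Asb4 are maternally expressed genes of 1 cluster that moved in opposite directions, and the windows at their annotated starts are shown for that reason, again from RefSeq on GRCm38.p6 with CpG pairs in capitals. The first Calcr window, chr6:3763574-3763873 on the minus strand, holds 29 CpG pairs and the other, chr6:3764664-3764963 on the same strand, holds 4. The Asb4 windows, chr6:5383136-5383435 and chr6:5390160-5390459 on the plus strand, hold 6 and 8.
Calcr, first window: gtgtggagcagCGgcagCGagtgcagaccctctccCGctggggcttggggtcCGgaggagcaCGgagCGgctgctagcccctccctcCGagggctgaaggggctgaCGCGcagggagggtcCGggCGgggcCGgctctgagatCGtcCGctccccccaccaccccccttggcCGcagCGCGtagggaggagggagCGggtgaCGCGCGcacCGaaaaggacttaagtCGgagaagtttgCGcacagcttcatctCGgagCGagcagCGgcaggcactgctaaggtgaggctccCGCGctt
Calcr, second window: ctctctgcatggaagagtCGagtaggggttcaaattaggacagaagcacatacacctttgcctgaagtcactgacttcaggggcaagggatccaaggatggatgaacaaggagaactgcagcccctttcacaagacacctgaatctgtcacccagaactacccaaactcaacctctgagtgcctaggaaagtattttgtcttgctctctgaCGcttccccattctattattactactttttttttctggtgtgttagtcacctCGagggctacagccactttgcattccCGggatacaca
Asb4, first window: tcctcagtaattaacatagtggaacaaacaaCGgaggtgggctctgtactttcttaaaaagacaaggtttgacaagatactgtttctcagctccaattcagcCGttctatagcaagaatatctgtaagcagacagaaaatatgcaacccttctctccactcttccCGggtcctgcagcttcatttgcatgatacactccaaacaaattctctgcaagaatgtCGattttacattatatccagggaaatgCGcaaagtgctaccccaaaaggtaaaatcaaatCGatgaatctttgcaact
Asb4, second window: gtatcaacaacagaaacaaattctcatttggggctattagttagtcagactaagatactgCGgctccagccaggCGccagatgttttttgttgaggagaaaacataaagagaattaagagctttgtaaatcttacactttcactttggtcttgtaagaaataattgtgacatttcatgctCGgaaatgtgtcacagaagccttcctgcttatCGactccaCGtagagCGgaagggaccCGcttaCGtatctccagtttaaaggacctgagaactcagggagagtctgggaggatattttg

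Over the whole set, 37 of the 45 imprinted genes had a window in the RefSeq promoter table, 57 windows in all, with a median of 15 CpG pairs each, beside 7 over all 32851 windows. The letters CAGAC on either strand, the core of a SMAD binding element, stood in 11 of 14 windows (78.6%) of the imprinted genes that rose or fell, in 14 of 41 windows (34.1%) of those tested and not past the threshold, and in 49.6% of all windows. Over all 57 windows of imprinted genes, CAGAC stood in 26 (45.6%). Several genes have more than 1 window and windows can overlap, as those of Peg3 and Usp29 do, so these shares are a description. Binding of SMAD proteins to these windows was not tested. The 14 windows belong to 9 of the 11 called genes, since H19 and Sgce have no window in the table, and 4 of the 14 are those of Igf2. TGTNNATT, which covers FOXH1 sites, stood in 3.51% of the windows of imprinted genes and 12.2% of all windows. GCCATNTT, a YY1 motif, stood in 7.02% and 6.05%, and each motif was read on both strands. In the windows of genes that rose or fell, TGTNNATT stood in 1 of 14 and GCCATNTT in 0 of 14. In those of genes tested and not past the threshold, they stood in 1 of 41 and 4 of 41.

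The paternally expressed pair of this cluster, Sgce and Peg10, share a promoter region, and Sgce passed the threshold while Peg10 did not. Sgce, which encodes epsilon-sarcoglycan, read 844, 771 and 801 with SB431542, against 644, 623 and 603 with DMSO, a clear separation with a log2 change of 0.37 ± 0.06 (limma adjusted p = 0.0139). This call was lost on leaving out DMSO replicate 2 (adjusted p = 0.0660) or DMSO replicate 3 (0.0666). Peg10, a retrotransposon-derived gene needed for the placenta in mice, read 186, 169.6 and 137 with SB431542, against 121, 124 and 112 with DMSO. Its groups did not overlap either, but the change of 0.46 ± 0.12 did not pass (limma adjusted p = 0.0645), and on slide 1 alone it was 0.58 and past the threshold (adjusted p = 0.0152), as it was with an eBayes trend (0.0304). Ppp1r9a, which encodes the actin-binding protein neurabin, had a change of 0.02 ± 0.07 that did not pass, and its groups overlapped. Its second, dimmer probe had 0.32 ± 0.10 with groups that did not overlap, also not past the threshold (limma adjusted p over all probes 0.113), and the mean of both probes was 0.17.

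**Figure D2:**
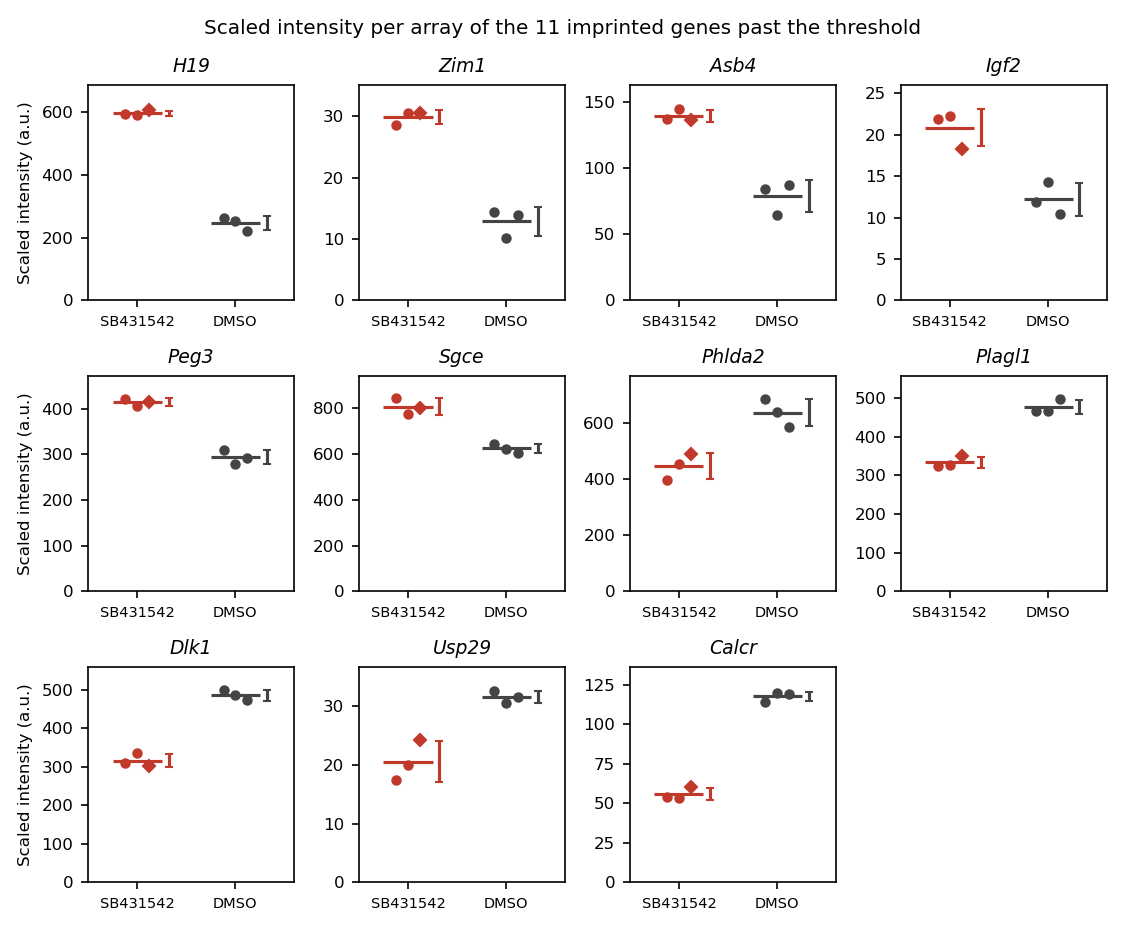
Scaled intensity per array on linear axes from 0 for the 11 imprinted genes past the threshold, SB431542 on the left and DMSO on the right of each panel; horizontal lines are means over 3 arrays, bars are SDs, and the diamond is the SB431542 replicate on slide 2. In none of the 11 panels do the arrays of the 2 groups overlap.

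The Dlk1-Meg3 cluster held 1 called gene out of 4 tested. Dlk1, the gene of a non-canonical Notch ligand, known as paternally expressed, read 309, 336 and 303 with SB431542, against 499, 485 and 472 with DMSO. All SB431542 arrays were well below all DMSO arrays, and the log2 change was -0.62 ± 0.06 (limma adjusted p = 0.00319). Its second probe fell by 0.61. Meg3, the long non-coding RNA gene of the opposite parental copy, did not pass: it read 22032, 20625 and 19317 with SB431542, against 21370.5, 21162 and 21503 with DMSO (log2 change -0.05 ± 0.06, limma adjusted p = 0.658). Its groups overlapped, and its dimmer probes, at -0.20 ± 0.09 and 0.25 ± 0.13, did not pass either. The groups also overlapped for the other maternally expressed transcript, Mirg (0.04 ± 0.15). Dio3, which encodes a thyroid hormone deiodinase, was dim, though well above background on all 6 arrays, at 9.50 to 12.9 with SB431542 and 9.39 to 15.7 with DMSO (-0.17 ± 0.23).

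None of the 5 tested genes listed for the Snrpn-Ube3a cluster passed the threshold. Genes outside the 45 are not counted here, and of those Peg12 changed by -0.29 ± 0.07 and passed (limma adjusted p = 0.0427). Of the 5 listed genes, 4 had groups that did not overlap and 2 (Ndn and Ube3a) had an unadjusted limma p under 0.05. Of these 4, 3 were higher and 1 lower, beside 18.5% and 17.5% of all features without overlap. Snrpn, the gene of the splicing protein SmN, read 4751, 4663 and 4793 with SB431542, against 4548, 4067 and 4318 with DMSO, a log2 change of 0.14 ± 0.06 (limma adjusted p = 0.207). The MAGE family genes Ndn and Magel2 had changes of 0.14 ± 0.05 and 0.15 ± 0.07. All 3 are known as paternally expressed, and all 3 were higher on every SB431542 array than on any DMSO array. Ube3a, the ubiquitin ligase gene known as maternally expressed in neurons, was lower on every SB431542 array, at 639 to 661, against 719.9 to 739 with DMSO (-0.16 ± 0.05, limma adjusted p = 0.0885). Mkrn3, which encodes a makorin ring finger protein, overlapped between the groups (-0.09 ± 0.09).

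In the Kcnq1ot1 cluster, 1 of 5 tested genes was called. Phlda2, which encodes a pleckstrin homology domain protein known to restrain placental growth and is maternally expressed, read 398, 453 and 488 with SB431542, against 683, 638 and 586 with DMSO. The groups did not overlap but each spread widely, and the log2 change was -0.51 ± 0.10 (limma adjusted p = 0.0251). The call was lost on leaving out any one DMSO array (adjusted p 0.0891, 0.0942 and 0.0530), SB431542 replicate 1 (0.0517) or SB431542 replicate 2 (0.0672).

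Kcnq1ot1 itself, the long antisense RNA made from the paternal copy, read 451, 689.6 and 641 with SB431542, against 369.8, 391 and 479 with DMSO. One SB431542 array lay within the DMSO range, and the log2 change of 0.51 ± 0.19 did not pass (limma adjusted p = 0.144). It passed with the mean of its probes (0.43, limma adjusted p = 0.0312) and without SB431542 replicate 1 (0.69, 0.0398). Tested probe by probe, its dimmer probe had 0.36 ± 0.11, not past the threshold. Of 5 further probes that carry the name KCNQ1ot1 in the file, 2 were bright enough to be tested: one rose by 0.61 and the other changed by 0.12 without passing. Slc22a18, Tssc4 and Ascl2, all known as maternally expressed in the placenta or more widely, did not pass, at -0.06 ± 0.07, -0.12 ± 0.08 and -0.11 ± 0.15. Ascl2, a trophoblast transcription factor gene, read 1018, 1030.4 and 719 with SB431542, against 992, 981 and 970.3 with DMSO, so the low value came from the replicate on slide 2, without which the change was 0.06.

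**Figure D3:**
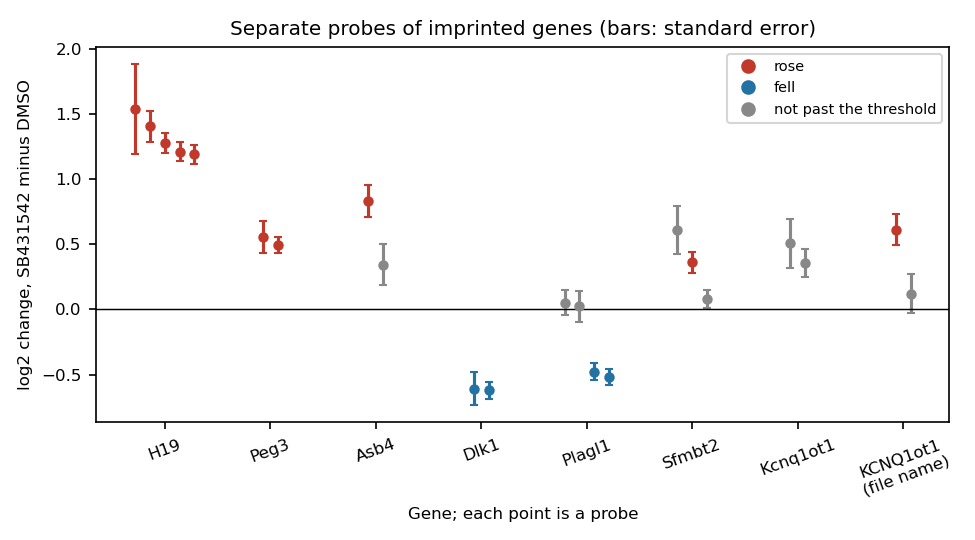
Log2 change, SB431542 minus DMSO, on the y axis for each probe of 7 imprinted genes with more than 1 tested probe, and for the 2 tested probes named KCNQ1ot1 in the file; bars are standard errors. All 5 probes named H19 rose and both Dlk1 probes fell, while Asb4, Plagl1 and Sfmbt2 have probes on both sides of the threshold. The tested probes named KCNQ1ot1 in the file also lie on both sides of it.

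Of the 9 imprinted genes that have no other listed gene in their cluster, 1 fell and 8 did not pass. Plagl1, a zinc finger transcription factor gene known as paternally expressed, read 324, 328 and 350.4 with SB431542, against 468, 466 and 499 with DMSO. The groups were well separated, and the log2 change was -0.52 ± 0.06 (limma adjusted p = 0.00480). Its probes disagreed: 2 of 4 fell, by 0.52 and 0.48, and the other two had 0.02 and 0.05 with overlapping groups. The mean of the 4 probes changed by -0.23 and did not pass (adjusted p = 0.0577).

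Sfmbt2, a Polycomb gene, likewise had probes that differed. The brightest had a change of 0.08 ± 0.07 and did not pass, a second rose by 0.36 (limma adjusted p over all probes 0.0466) and the dimmest had 0.61 ± 0.19 without passing. The mean of the 3 probes changed by 0.35 and passed (limma adjusted p = 0.0335). Grb10, an adaptor of the insulin and IGF1 receptors, read 202, 260.3 and 158 with SB431542, against 283, 262 and 297 with DMSO. The SB431542 arrays were all lower and varied widely, and the change of -0.47 ± 0.18 did not pass (limma adjusted p = 0.162). Without the replicate on slide 2 it was -0.29 (adjusted p = 0.225), and without SB431542 replicate 2 it was -0.65 and past the threshold (0.0485). The remaining genes with no listed partner did not pass: Nnat at -0.14 ± 0.12, Trappc9 at -0.10 ± 0.06, Zdbf2 at 0.04 ± 0.09, Gab1 at -0.02 ± 0.06, Impact at 0.01 ± 0.08 and Inpp5f at 0.01 ± 0.11. A second, dimmer Impact probe had 0.36 ± 0.13 with groups that did not overlap, also not past the threshold (limma adjusted p over all probes 0.143), and the mean of both probes was 0.19.

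Among the remaining pairs, Mest had the clearest difference. Mest, a hydrolase-family gene known as paternally expressed, read 9147, 8865 and 9404 with SB431542, against 8144, 7902 and 7543 with DMSO. The groups did not overlap, and the change of 0.22 ± 0.06 missed the threshold (limma adjusted p = 0.0603). It passed with normexp (0.0478), median scaling (0.0474) and an eBayes trend (0.0165). Copg2, the coatomer subunit gene that lies beside Mest on the opposite strand, read 2404, 2943 and 1699 with SB431542, against 2780.0, 2494 and 2755 with DMSO. Its groups overlapped, the lowest value was that of the replicate on slide 2, and the change was -0.22 ± 0.20 with that array and -0.01 without it. In the Gnas cluster, Gnas, the stimulatory G protein alpha subunit gene, changed by 0.04 ± 0.05 and its antisense RNA Nespas by 0.06 ± 0.11. In the remaining pair, Zrsr1, a splicing factor gene, changed by 0.09 ± 0.07 and its host gene Commd1 by 0.06 ± 0.06. None of these 4 passed.

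The calls fell on both parental classes, which are the known classes of these genes and were not measured in the J1 cells. Among 18 tested genes known as maternally expressed, 3 rose, 2 fell and 13 did not pass, with a median log2 change of -0.05, beside 5.09% of all features called higher and 7.37% called lower. Among 23 known as paternally expressed, 3 rose, 3 fell and 17 did not pass, with a median of 0.08. Groups that did not overlap were higher for 3 and lower for 4 maternally expressed genes, and higher for 8 and lower for 3 paternally expressed genes, beside 18.5% and 17.5% of all features. The difference between the parental classes was not tested. Of the 6 tested long non-coding RNA genes, 1 rose (H19), and of the 35 protein-coding genes 5 rose and 5 fell. Calls came from 5 of the 10 clusters with more than 1 listed gene, and the Peg3 and Peg10-Sgce clusters held both rises and falls.

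**Figure D4:**
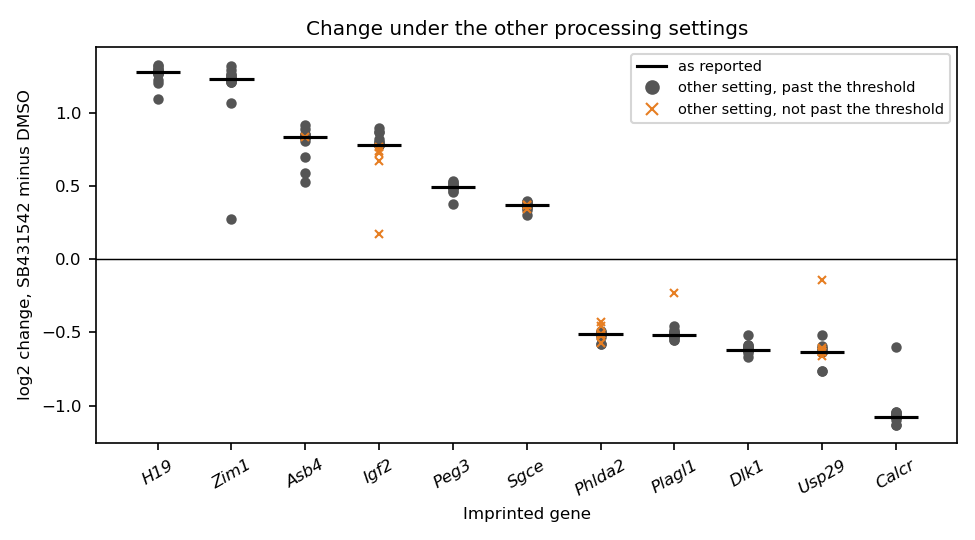
Log2 change, SB431542 minus DMSO, on the y axis for the 11 called imprinted genes under the reported processing (black line) and the other settings (grey points past the threshold, orange crosses not past it). H19, Zim1, Peg3, Dlk1 and Calcr have no cross, and the normexp correction gives the value nearest 0 for every gene shown except Plagl1 and Phlda2.

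Other genes of imprinted clusters and the genes that keep imprints were read from the same fit. Of 36 further imprinted genes, 28 were tested. Of the 28, 2 rose (Osbpl5 and Pon2) and 5 fell (Cdkn1c, Begain, Cobl, Dcn and Peg12). The size of the Dcn fall is uncertain, since its SB431542 readings may lie at background. On slide 1 alone 5 passed the threshold, all of them lower. Over all features, 5.09% rose and 7.37% fell, and on slide 1 alone 4.74% rose and 6.48% fell. The growth-restraining cell cycle inhibitor Cdkn1c, a maternally expressed gene of the Kcnq1ot1 cluster, read 1388 to 1631 with SB431542, against 3740.2 to 3877 with DMSO, a log2 change of -1.37 ± 0.08 (limma adjusted p = 0.000524). Of 19 genes that set or keep imprinted methylation and chromatin, all were tested, 2 rose (Dppa3 by 0.77 and Smchd1 by 0.31) and 2 fell (Zfp57 by 0.38 and Dnmt3l by 0.30), beside the same 5.09% and 7.37% of all features. Zfp57 encodes the zinc finger protein that binds methylated imprinting control regions, and Dppa3 protects their methylation in the early embryo.

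The embryonic stem cell identity of the samples was checked with 8 markers, all tested. Of these, 2 passed the threshold, both lower (Tdgf1 fell by 1.04 and Dppa5a fell by 0.49), and their summed scaled intensity was 218724 to 244174 with SB431542, against 294497 to 306713 with DMSO. Markers of other cell types were read in the same way. Of 9 fibroblast markers, 7 were tested and 2 fell (Col1a2 and Pdgfrb), 2 were at background on all 6 arrays, and the sum was 1075 to 1169 with SB431542, against 1291 to 1381 with DMSO. Of 9 primitive endoderm markers, 8 were tested and 1 rose (Pdgfra), with sums of 7883 to 7980 with SB431542, against 6763 to 7448 with DMSO. Of 9 trophoblast markers, which include Ascl2, 6 were tested and 1 rose (Gata3), 3 were at background on all 6 arrays, and the sum was 2677 to 3256 with SB431542, against 3303 to 3427 with DMSO. Of 6 neural markers, 5 were tested and 2 fell (Nes and Sox1), 1 was at background on all 6 arrays, and the sum was 3366 to 3828 with SB431542, against 3613 to 3690.4 with DMSO. Probes share no common scale, so a sum is not a level of its list. The largest part of each sum is its brightest probe (Dppa5a, Thy1, Lama1, Krt18 and Tubb3, in the order of the lists). The difference between the groups can come from other probes. Col1a2 read 119 to 162 with SB431542, against 287 to 312 with DMSO. The neural sums overlapped although Tubb3 was higher on every SB431542 array. Of the brightest probes, Thy1, Lama1, Krt18 and Tubb3 did not pass the threshold. Nor did the stem cell markers Pou5f1, Sox2, Nanog, Zfp42, Esrrb and Klf4. The median log2 change was -0.12 for the stem cell, -0.07 for the fibroblast, 0.02 for the primitive endoderm, -0.07 for the trophoblast and 0.14 for the neural list. The part of any of these in the imprinted gene changes was not tested.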

How the data were processed

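Agilent 1-colour arrays measured total RNA of J1 cells, 3 arrays with 3 µM SB431542 and 3 with DMSO for 24 h, grouped by the sample titles. The deposited scanner files give each spot a linear intensity, already background-subtracted by Agilent Feature Extraction (10.7, per the submitters' processing notes) and not normalized between arrays. The flags for well above background, outlier and saturated spots are a score of 0 or 1, per the file headers. The log2 table deposited by the authors served as an alternative. Its columns share a median of 5.18, and the sources used here do not say how it was normalized.

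Each array held 59305 non-control spots of 55681 probes. Dropping outlier spots lost 81 probes, and the remaining spots were averaged by probe. Per array, 63.9% to 66.2% of spots passed the scanner's background test, none was saturated (0), and the 75th percentile was 515 to 643. Arrays of a group correlated at 0.995 to 0.998 and arrays of different groups at 0.991 to 0.994, and the number of arrays limits the precision. Accessions named 27200 probes through the RefSeq gene table, 21 took the name in the file (for genes that no accession reached, as H19), and 28379 have no symbol here.

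The log2 processed signal minus the 75th percentile of its array was tested with limma 3.58.1 (lmFit and eBayes, R 4.3.3, with Python 3.11.15), two-sided, with Benjamini-Hochberg adjustment over 25899 features and a threshold of 0.05. A gene is its brightest probe by mean over the 6 arrays, and a probe needed to be well above background on 3 of 6 arrays to be tested. Every listed gene is accounted for, those past the threshold with all their values, and from each further list up to 4 genes past the threshold with the smallest adjusted p could be named. The genes and lists were chosen with earlier results of these data known. Alternatives were normexp (offset 50), quantile and median scaling, the deposited log2 table, other filters on dim probes, the mean of probes or every probe, a replicate or slide block, an eBayes trend, an adjusted p of 0.01 and leaving out each array. The design had foreseen the mean signal for normexp, and the median signal was used, as the files analysed here give that column. The steps were tested on simulated data. The labels do not say whether a replicate number marks samples that belong together. Deviations from the group means of same-numbered arrays correlated at 0.00, 0.07 and -0.06, and those of differently numbered arrays at -0.08 to 0.07. With so few arrays, these values cannot show whether the samples were paired.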

Additional observations from a re-analysis of the deposited data

How the results depend on the processing

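H19, Zim1, Peg3, Calcr and Dlk1 stayed past the threshold in their direction under every setting that gave them a value. Over the 41 genes, 599 of 654 results by gene and setting kept direction and side of the threshold. The adjusted p of 0.01 and the fit of every probe are left out of these. The slide block and the fit without SB431542 replicate 3 give the same values, and both are counted. Genes that stayed uncalled count as kept, and 24 of the results, from 6 genes, lost a call. Without a filter on dim probes, 3 imprinted genes were lower and 2105 features changed, against 5 and 3229 as reported, with Usp29 (limma adjusted p = 0.0587) and Phlda2 (0.0555) no longer past the threshold. With every probe tested on its own, 12 of 69 imprinted gene probes were higher and 7 lower, beside 4.23% and 6.52% of all probes. Of the 12, 5 were probes of H19. At an adjusted p of 0.01, 3 imprinted genes were higher, 3 lower and 1222 features changed. With the replicate number as a replicate block, 4 were higher, 3 lower and 1556 features changed. Sgce (limma adjusted p = 0.0542), Asb4 (0.05002), Usp29 (0.0734) and Phlda2 (0.100) lost their calls, and the labels do not say whether the numbers pair the samples. Peg10, Mest, Grb10, Kcnq1ot1 and Sfmbt2 gained a call under 10 of the results by gene and setting. Leaving out 1 array gave 4 to 7 higher, 3 to 5 lower and 1461 to 2905 features changed, with 1461 to 1621 on leaving out a DMSO array. With all 6 arrays required above background, Igf2 and Zim1 were not tested. For 10 genes the sign turned under some setting, none of them past the threshold in it. With normexp, Ppp1r9a had -0.00628 and Impact -0.0152. With the mean of probes, Meg3 had 0.00222 and Gnas -0.0598. Gab1 had 0.000391 with median scaling, and Ascl2 had 0.0617 with the slide block, which is the fit without SB431542 replicate 3. Leaving out 1 array in turn, Ppp1r9a ran from -0.0104 to 0.0646, Mirg from -0.0344 to 0.176, Ascl2 from -0.198 to 0.0617 and Impact from -0.0600 to 0.0800. In the same way, Nespas ran from -0.0372 to 0.134, Gab1 from -0.0488 to 0.0129, Zdbf2 from -0.00218 to 0.132 and Inpp5f from -0.0785 to 0.0999. The cause was not tested. Among the called genes, the dim Igf2, Usp29 and Zim1 moved most with normexp, which adds an offset of 50 to every intensity.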

Other observations

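The further imprinted genes outside the 45 that passed the threshold lay in several clusters, and 4 of the 5 that fell are named here with Cdkn1c. Begain, a gene beside Dlk1 and known as paternally expressed, read 125 to 142 with SB431542, against 256 to 272 with DMSO, a log2 change of -0.97 ± 0.07 (limma adjusted p = 0.000968). Cobl, an actin nucleator gene beside Grb10, read 3485 to 4394 with SB431542, against 7182 to 7794 with DMSO (-0.93 ± 0.10, limma adjusted p = 0.00357). Dcn, which encodes the matrix proteoglycan decorin, was dim at 4.92 to 9.38 with SB431542, against 16.0 to 20.2 with DMSO (-1.29 ± 0.26, limma adjusted p = 0.0271). In none of these genes did the groups overlap. How many Dcn arrays were well above background is not given here, and its SB431542 readings may lie at background.

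Among the genes that set or keep imprints, Dppa3 read 1641 to 1806 with SB431542, against 976 to 1086 with DMSO (log2 change 0.77 ± 0.07, limma adjusted p = 0.00228). Smchd1, a chromosomal protein gene needed for repression at several imprinted clusters, read 13226 to 13832 with SB431542, against 10621 to 11324 with DMSO (0.31 ± 0.05, limma adjusted p = 0.0192). Zfp57 was lower, at 1952 to 2281 with SB431542, against 2674 to 2834 with DMSO (-0.38 ± 0.07, limma adjusted p = 0.0271). Dnmt3l, the cofactor of the de novo DNA methyltransferases, read 30490.5 to 35601 with SB431542, against 39491 to 40498 with DMSO (-0.30 ± 0.07, limma adjusted p = 0.0489). The median log2 change over the 19 genes was 0.02, beside 0.02 over all features.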
